A study of Mus musculus with 12 samples.

Results

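The genes described here are 8 of the 24781 gene symbols in the deposited table, chosen by symbol for their part in the MHC class I pathway: B2m, H2-K1, H2-D1, H2-T23, Tap1, Tap2, Tapbp and Nlrc5. They were followed through RNA of invariant natural killer T cells (iNKT cells), which recognise lipid on CD1d, from mice aged 6 weeks. Each of the 12 libraries came from 100 freshly sorted cells that were positive for TCRbeta, NK1.1, CD1d tetramer and CXCR6. The 4 groups of 3 libraries were lung CD244-positive, lung CD244-negative, thymus CD244-positive and thymus CD244-negative cells. The labels give no strain, sex, genotype or treatment, and they call the replicates separate library preparations without naming animals, so the spread behind every p-value may be technical and not that between mice.

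MHC class I molecules carry short peptides from inside the cell to its surface, where CD8 T cells and natural killer cells inspect them. A polymorphic heavy chain pairs with the invariant light chain beta-2-microglobulin, and the proteasome cuts the peptides, which the TAP transporter moves into the endoplasmic reticulum, where tapasin holds the empty molecule beside TAP until a peptide binds. Nearly all nucleated cells carry class I molecules, lymphocytes at high levels, and interferon raises the whole pathway through factors such as IRF1 and the class I transactivator NLRC5. CD1d, the molecule that iNKT cells recognise, is itself a class I-like heavy chain that needs beta-2-microglobulin.

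Levels are molecules per 10000 molecules of the library. Each molecule was counted once through a barcode in the oligo-dT primer, so levels of different genes can be set side by side without dividing by length. The depth was 42520 to 51436 molecules for lung CD244-positive libraries, 29696 to 32196 for lung CD244-negative ones, 56615 to 71789 for thymus CD244-positive ones and 60120 to 67478 for thymus CD244-negative ones. A count of 3 molecules, the limit that a count of 0 allows, was a level of 0.583 to 0.706, 0.932 to 1.01, 0.418 to 0.53 and 0.445 to 0.499 in the same order of groups, for counting error only. The 13 iNKT and T cell markers had molecules in all 4 groups. Their summed level was 18.6 to 32.6 in lung CD244-positive libraries, against 47.1 to 48.7 in lung CD244-negative, 46.7 to 50.7 in thymus CD244-positive and 44.9 to 52.6 in thymus CD244-negative libraries. The 12 myeloid markers, genes of macrophages and related cells, summed to 77.4 to 157 in lung CD244-positive libraries, where all 12 had a molecule, and to 0.883 to 2.65 in the other 9 libraries. Lung epithelial markers summed to at most 3.37, and those of B cells, endothelium, fibroblasts and immature thymocytes to at most 1.33, in any library. The 3 lung CD244-positive libraries thus stand apart from the rest and go against a sort for T cells alone; no lung CD244 comparison can be made without them. In such bulk samples fewer cells of a type and less RNA per cell cannot be told apart.

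The 8 genes differed widely in level, with the light chain and the classical heavy chains far above the other 5. B2m, the beta-2-microglobulin gene, averaged 48.5 molecules per 10000 over the 12 libraries and ranked 14 among all genes. H2-D1 (21.6, rank 69) and H2-K1 (20.4, rank 75), the genes of the classical heavy chains H-2D and H-2K, came next, with ranges over the libraries that overlap. Tapbp, the tapasin gene, averaged 2.78 and Tap1, which encodes one chain of the transporter, 1.17. Tap2, the gene of the partner chain, averaged 0.597, the non-classical heavy chain gene H2-T23, which encodes Qa-1, 0.409, and Nlrc5 0.359. The last 3 lay near or under the level of 3 molecules, and their order cannot be read from these counts. Together the 8 genes made up 0.863% to 1.12% of the molecules of a library, and B2m, H2-K1 and H2-D1 made up 92.7% to 97.2% of that.

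**Figure D1:**
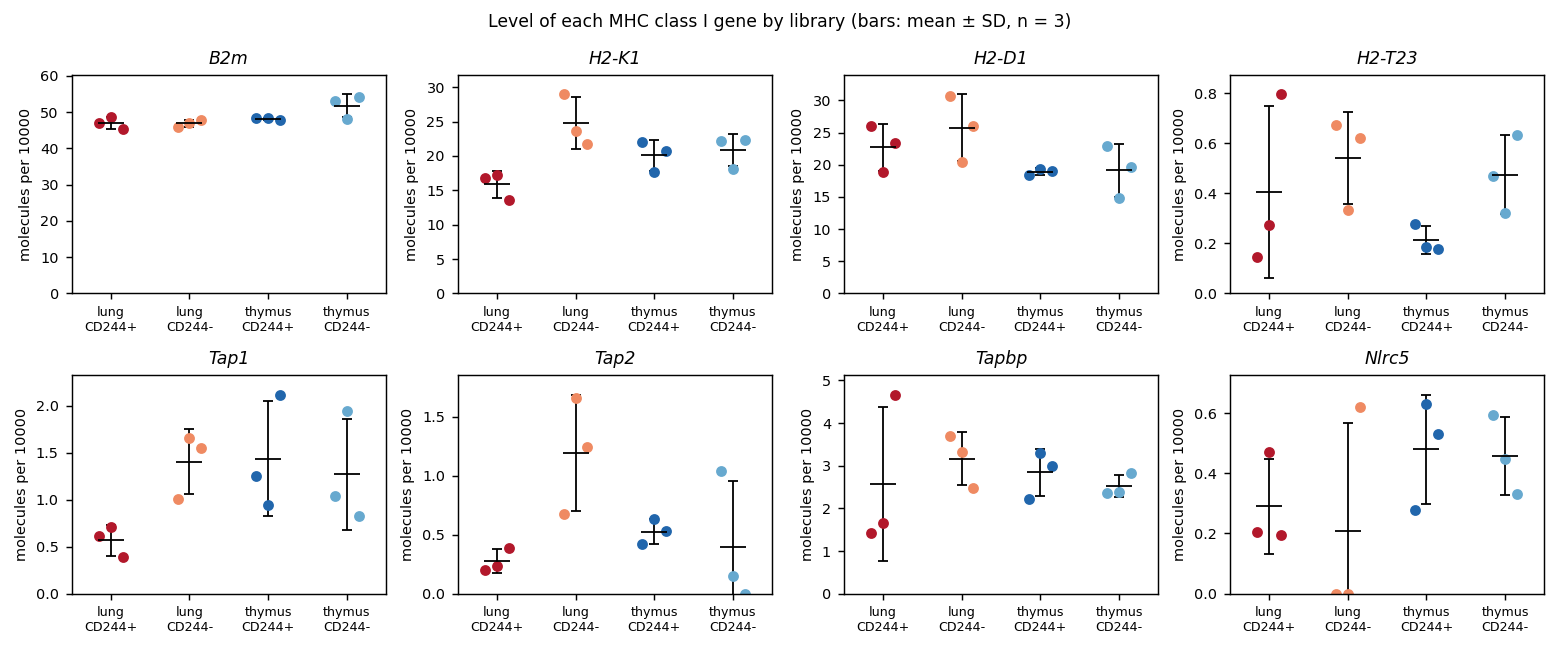
Levels of the 8 MHC class I genes, in molecules per 10000 on linear axes that start at 0, in each library (points) of the 4 groups, with group means and SD (n = 3; bars end at 0 where they would pass it). B2m sits between 45.3 and 54.1 in all 12 libraries, and H2-K1 is lower in all 3 lung CD244-positive libraries (13.6 to 17.2) than in all 3 lung CD244-negative libraries (21.7 to 29.0).

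By position on build mm10 (GENCODE M21 gene models), B2m lies on chr2:122147686-122153083 and Nlrc5 on chr8:94434356-94527272, both on the plus strand. The other 6 genes lie in the MHC on chromosome 17, in the order Tapbp (chr17:33915899-33929292, plus strand), H2-K1 (chr17:33996017-34000347, minus), Tap1 (chr17:34187553-34197225, plus), Tap2 (chr17:34203527-34216321, plus), H2-D1 (chr17:35262730-35267499, plus) and H2-T23 (chr17:36029773-36032855, minus). The starts of Tap1 and of the proteasome gene Psmb9, on the opposite strand (chr17:34181987-34187764), overlap, and whether counting used strand is not given in the sources used here. The heavy chain genes share long stretches with near-identical copies. Their molecule counts were fractions in 8 of 12 libraries for H2-K1, 10 of 12 for H2-D1 and 7 of 12 for H2-T23, and in 4 of 12 for B2m, while Tap1, Tap2, Tapbp and Nlrc5 had whole counts in all 12, so the split of reads among the heavy chains is uncertain.

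Promoter windows of 300 bases from RefSeq (GRCm38.p6) were at hand for 6 of the 8 genes. Those of the light chain and the classical heavy chains are shown because H2-K1 and H2-D1 are near copies whose RNA did not give the same test result in lung. Capitals mark matches, on either strand, to CCAAT (the core of the Y box), TGACG (the core of the X2 box), an interferon-stimulated response element (GAAA, any 2 bases, GAAA) and NF-kappaB site forms (GGGATTCCC, or GGGA, any 1 base, TTTCC). The windows are B2m (chr2:122147437-122147736, plus strand), H2-K1 (chr17:34000298-34000597, minus strand, the first of 2 windows for this gene) and H2-D1 (chr17:35262844-35263143, plus strand), each 5′ to 3′ in the direction of transcription.
B2m: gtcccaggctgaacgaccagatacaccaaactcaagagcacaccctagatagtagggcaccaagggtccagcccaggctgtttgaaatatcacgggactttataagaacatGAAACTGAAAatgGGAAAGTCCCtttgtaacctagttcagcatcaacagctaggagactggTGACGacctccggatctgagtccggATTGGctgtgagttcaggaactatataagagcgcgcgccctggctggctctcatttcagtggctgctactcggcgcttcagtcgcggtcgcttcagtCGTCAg
H2-K1: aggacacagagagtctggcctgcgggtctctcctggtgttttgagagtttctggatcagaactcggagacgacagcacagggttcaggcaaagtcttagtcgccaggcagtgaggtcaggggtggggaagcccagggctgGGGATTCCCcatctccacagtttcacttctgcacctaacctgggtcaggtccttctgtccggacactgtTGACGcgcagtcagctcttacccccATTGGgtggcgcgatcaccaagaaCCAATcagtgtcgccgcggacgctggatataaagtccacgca
H2-D1: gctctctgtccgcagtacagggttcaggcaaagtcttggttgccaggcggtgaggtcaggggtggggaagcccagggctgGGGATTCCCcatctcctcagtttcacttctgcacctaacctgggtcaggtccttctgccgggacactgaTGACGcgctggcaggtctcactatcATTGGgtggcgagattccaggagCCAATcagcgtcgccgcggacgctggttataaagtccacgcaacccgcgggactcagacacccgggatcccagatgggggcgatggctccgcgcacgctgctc
In a local alignment the H2-K1 and H2-D1 windows matched at 206 of 228 aligned bases (90.4%). CCAAT was in all 6 windows, against 37.4% of 32851 mouse windows of the same length, and TGACG was in 4 (B2m, H2-K1, H2-D1 and Tap1), against 20.8%. The searched form of the interferon-stimulated response element was in 2 (B2m and H2-T23), against 3.44%. No looser form was searched, so an element with other letters, in H2-K1 or H2-D1 for example, would be missed. GGGATTCCC was in H2-K1 and H2-D1, against 0.353% of windows, and the other NF-kappaB form in B2m, against 0.411%; these letters were chosen after the windows were seen, and the form GGGANTTCC searched first was in none of the 6, against 1.68%. The matches did not overlap one another, and a match is a run of letters, not a measured site.

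The CD244 comparison in lung asked how the light chain, the heavy chains and the loading machinery differ between the 2 subsets. At a common total, H2-K1 of the 8 genes fell in CD244-positive cells and 7 did not pass the test. With libraries scaled to T cell receptor complex genes B2m and H2-D1 rose and H2-K1 did not pass, and Tap2 passed as lower in 3 other alternatives. The light chain gene B2m was at the same level in both subsets per 10000 molecules. Fold changes here and below are differences of log2(molecules per 10000 + 0.5), which understate the changes of low genes, and the test was limma with Benjamini-Hochberg adjustment over 4577 genes and a threshold of 0.05. By that test 11.0% of all genes were called in this comparison, and 3.95% of all genes were called lower, so 1 call among 8 genes is close to the background. The median log2 fold change of the 8 genes was -0.32, against 0.00 over all genes tested.

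B2m had 47.1, 48.7 and 45.3 molecules per 10000 in the lung CD244-positive libraries, against 46.0, 47.1 and 47.8 in the lung CD244-negative libraries. The ranges overlap, and the means of 47.0 ± 1.69 and 47.0 ± 0.941 (SD, n = 3 each) are the same. The log2 fold change was 0.00 (95% interval -0.20 to 0.20, limma adjusted p = 0.997), an interval that spans folds of 0.869 to 1.15. With 14 T cell receptor complex genes as the scale in place of all molecules, B2m was higher by 1.01 (adjusted p = 3.61e-08). Those 14 genes themselves summed to 19.1 to 31.6 per 10000 in lung CD244-positive libraries, against 45.1 to 51.9 in the CD244-negative ones. Scaling to them moved the log2 fold change of B2m from 0.00 to 1.01, of H2-K1 from -0.62 to 0.37 and of H2-D1 from -0.17 to 0.83. The median of all genes was then at 0.60. The pseudocount of 0.5 damps the shift of low genes, so this median understates the shift given to abundant genes.

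H2-K1 had 16.8, 17.2 and 13.6 molecules per 10000 in the lung CD244-positive libraries, against 29.0, 23.6 and 21.7 in the lung CD244-negative libraries. All 3 CD244-positive libraries lie below all 3 CD244-negative ones. Counted as molecules the libraries were alike, 82.2, 73.3 and 69.8 against 86.0, 71.2 and 70.0, in CD244-positive libraries that held more molecules in all. The log2 fold change was -0.62 ± 0.15 (SE, 95% interval -0.92 to -0.33, limma adjusted p = 0.00176, lower in 3 of 3 libraries), or 0.649-fold, and it was 0.37 (adjusted p = 0.13) under scaling to the T cell receptor complex genes. That scaling moved H2-K1 by about as much as B2m, which went from 0.00 to 1.01. With the myeloid markers and MHC class II genes left out of the common total, the H2-K1 value was -0.59 (adjusted p = 0.00293). That step moved B2m by about as much, from 0.00 to 0.03. It takes out the listed genes alone and keeps any H2-K1 RNA of other cells, so it cannot show what part such cells had in the H2-K1 value.

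H2-D1, the other classical heavy chain gene, had 25.97, 18.8 and 23.3 molecules per 10000 in the lung CD244-positive libraries, against 30.7, 20.3 and 26.1 in the lung CD244-negative libraries. The ranges overlap. Its log2 fold change was -0.17 ± 0.15 (95% interval -0.48 to 0.14, limma adjusted p = 0.556). It was 0.83 (adjusted p = 0.000326) with scaling to the T cell receptor complex genes, a shift about as large as those of B2m and H2-K1. Summed, H2-K1 and H2-D1 averaged 38.6 ± 3.68 in the CD244-positive and 50.5 ± 8.20 in the CD244-negative cells of lung; in thymus CD244-positive cells the sum was 39.1 ± 1.77, against 40.01 ± 6.37 in CD244-negative cells (SD, n = 3 each).

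The transporter genes were low in the same libraries as H2-K1, without passing the test. Tap2 had 1, 1 and 2 molecules in the lung CD244-positive libraries (levels 0.205, 0.235 and 0.389), against 2, 5 and 4 molecules in the lung CD244-negative libraries (0.674, 1.66 and 1.24). Its groups did not overlap, and the log2 fold change was -1.09 ± 0.39 (95% interval -1.86 to -0.31, limma adjusted p = 0.0578). Tap1 had 3, 3 and 2 molecules in the lung CD244-positive libraries (levels 0.614, 0.706 and 0.389), against 3, 5 and 5 in the lung CD244-negative libraries (1.01, 1.66 and 1.55). Its groups did not overlap either, and the log2 fold change was -0.83 ± 0.35 (95% interval -1.54 to -0.12, limma adjusted p = 0.134). H2-K1, Tap1 and Tap2 were thus the 3 genes of 8 whose lung groups did not overlap, all lower, against 10.1% of all genes lower without overlap. They are also the 3 with an unadjusted p under 0.05, as had 1052 of all 4577 genes tested. For Tap1 and Tap2 the counts of at most 5 molecules a library lie near the limit of 3. Their ranges touch when counted as molecules. Tap2 passed the threshold without the first lung CD244-negative library (-1.33, adjusted p = 0.0282), with a pseudocount of 2 (-0.48, adjusted p = 0.0332) and with quantile normalization (-1.17, adjusted p = 0.0325). With scaling to the T cell receptor complex genes Tap2 was at -0.56 (adjusted p = 0.302) and Tap1 at -0.18 (adjusted p = 0.751).

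Tapbp, H2-T23 and Nlrc5 showed overlapping lung groups. Tapbp had 7, 7 and 24 molecules in the lung CD244-positive libraries, against 11, 10 and 8 in the lung CD244-negative libraries, with the third CD244-positive library the highest of all 12 (level 4.67). Its log2 fold change was -0.39 (95% interval -0.997 to 0.224, limma adjusted p = 0.492). H2-T23 summed to 5.98 molecules over the lung CD244-positive and 5 over the lung CD244-negative libraries, and Nlrc5 to 4 and 2 (levels 0.19 to 0.47 and 0 to 0.62), so a difference in either was not detectable at this depth.

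**Figure D2:**
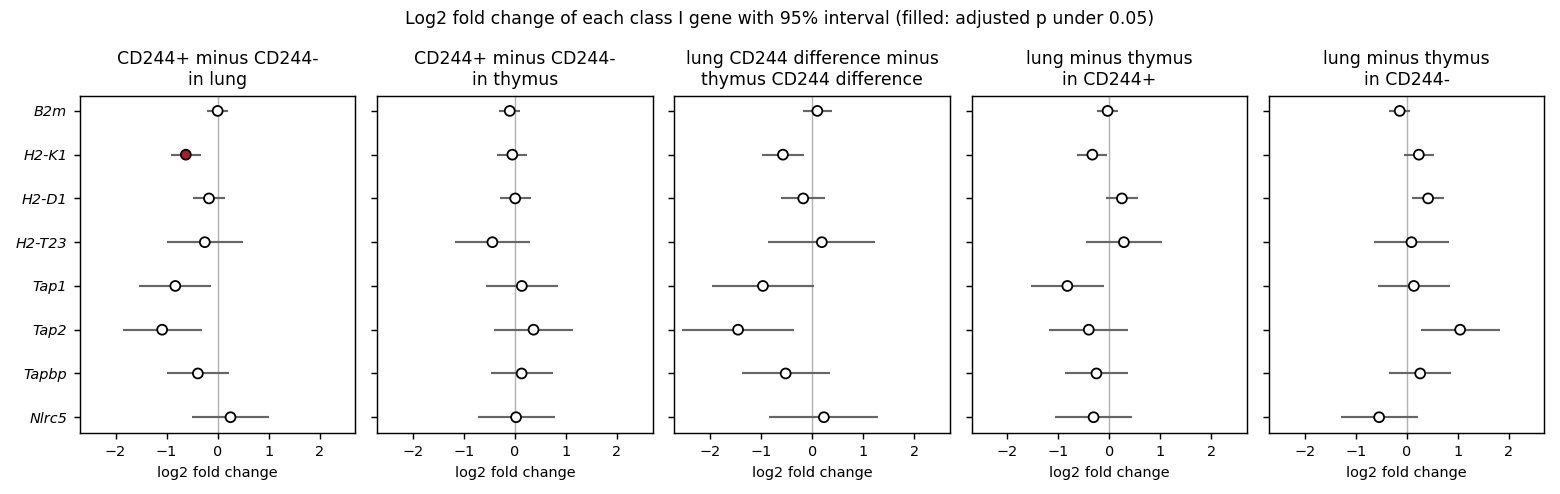
Log2 fold changes of the 8 genes with 95% intervals from limma, on the scale of log2(molecules per 10000 + 0.5), in the 5 comparisons. H2-K1 in lung, at -0.62, is the one value past the threshold of 0.05; with libraries scaled to T cell receptor complex genes it was 0.37.

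Ratios between genes of 1 library do not depend on how libraries are scaled, and these were added after the data were seen. In lung the H2-K1 to B2m ratio ran between 0.30 and 0.357 for CD244-positive libraries and between 0.455 and 0.63 for CD244-negative libraries, without overlap. In thymus it ran between 0.365 and 0.457 for CD244-positive libraries and between 0.376 and 0.419 for CD244-negative libraries, which overlap. The lung difference in this ratio had an exact permutation p of 0.1 (two-sided), the smallest that 3 against 3 libraries can give, and 0.4 after adjustment over 12 ratios tested. The H2-D1 to B2m ratio overlapped in lung, between 0.386 and 0.552 for CD244-positive libraries and between 0.432 and 0.668 for CD244-negative libraries. The ratio of H2-K1 to H2-D1 averaged 0.715 ± 0.177 in lung CD244-positive cells and 0.978 ± 0.167 in lung CD244-negative cells, against 1.07 ± 0.146 for the CD244-positive and 1.11 ± 0.131 for the CD244-negative cells of thymus (SD, n = 3 each), and within each tissue the groups overlap.

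**Figure D3:**
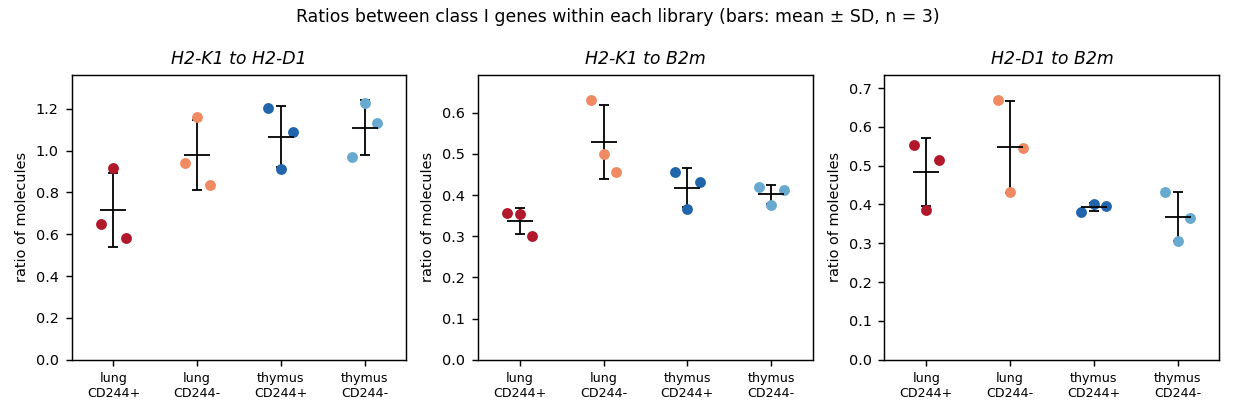
Ratios between H2-K1, H2-D1 and B2m molecules within each library (points), with group means and SD (n = 3), by group. H2-K1 to B2m is 0.30 to 0.357 in lung CD244-positive libraries and 0.455 to 0.63 in lung CD244-negative libraries, with both thymus groups between 0.365 and 0.457.

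In thymus the same comparison showed no class I gene that passed the test. The list was 0 of 8 higher and 0 of 8 lower by limma, with 0 at an unadjusted p under 0.05 and 0 called by edgeR of the 4 it tested (B2m, H2-K1, H2-D1 and Tapbp), where 0.328% of all genes were called by limma. B2m stood at 48.3, 48.4 and 47.9 molecules per 10000 in thymus CD244-positive libraries, against 53.1, 48.2 and 54.1 in the thymus CD244-negative libraries (log2 fold change -0.10, 95% interval -0.30 to 0.10, limma adjusted p = 1.0). H2-K1 had 22.1, 17.7 and 20.7 in the thymus CD244-positive libraries, against 22.2, 18.1 and 22.3 in the thymus CD244-negative libraries (log2 fold change -0.05, 95% interval -0.35 to 0.25). H2-D1 had 18.4, 19.4 and 19.0, against 22.96, 14.8 and 19.7 (log2 fold change 0.01, 95% interval -0.30 to 0.31). In these 3 genes the groups overlap, and for H2-K1 and H2-D1 the intervals allow folds of 0.787 to 1.19 and 0.812 to 1.24.

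The loading machinery of thymus cells likewise overlapped. Tap1 counted 9, 6 and 12 molecules among thymus CD244-positive libraries, against 7, 13 and 5 in the thymus CD244-negative libraries. Tap2 had 3, 4 and 3, against 7, 1 and 0. Tapbp had 16, 21 and 17 molecules, against 16, 16 and 17, and Nlrc5 2, 4 and 3, against 4, 3 and 2. H2-T23, at 4.17 molecules over the thymus CD244-positive and 9.12 over the thymus CD244-negative libraries, was the 1 gene of 8 whose thymus groups did not overlap, where 6.27% of all genes were lower without overlap, and its log2 fold change was -0.44 (95% interval -1.18 to 0.30, limma adjusted p = 1.0).

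Whether the CD244 difference itself differed between lung and thymus was tested as an interaction. None of the 8 genes passed, where 4.24% of all genes did. An unadjusted p under 0.05 was found for 2 of the 8, and for 634 of all 4577 genes tested. The 2 class I genes were H2-K1, with a difference of log2 fold changes of -0.57 ± 0.21 (95% interval -0.99 to -0.16, limma adjusted p = 0.131), and Tap2, with -1.45 ± 0.55 (95% interval -2.55 to -0.36, limma adjusted p = 0.151). The H2-K1 call in lung is therefore not shown to differ from thymus. With scaling to the T cell receptor complex genes the H2-K1 interaction turned to 0.22 (adjusted p = 0.682), that of Tap2 was -1.004 (adjusted p = 0.306), and B2m passed (0.91, adjusted p = 0.00123), with the median of all genes at 0.50. As above, that median understates the shift of abundant genes, and the B2m interaction was 0.10 at the common total. Tap2 passed without the first thymus CD244-negative library (-1.93, adjusted p = 0.0398), which holds 7 of that group's 8 molecules, and edgeR called 0 of the 4 genes it tested.

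Lung and thymus were compared within each subset at a common total, since the deposited thymus columns sum to 1.39 times the lung columns. In CD244-positive cells none of the 8 genes passed the test, where 12.3% of all genes did, and 2 had an unadjusted p under 0.05 (H2-K1 and Tap1). Over all 4577 genes tested, 1029 had such a p. B2m had 47.0 ± 1.69 in lung and 48.2 ± 0.25 in thymus (SD, n = 3 each), a log2 fold change of -0.04 (95% interval -0.24 to 0.17, limma adjusted p = 0.899). H2-K1 had 15.9 ± 2.002 in lung, against 20.1 ± 2.25 in thymus (-0.34 ± 0.15, adjusted p = 0.149), and H2-D1 22.7 ± 3.62 in lung, against 18.9 ± 0.511 in thymus (0.24 ± 0.15, adjusted p = 0.38). H2-K1, Tap1 and Tap2 lay lower in all 3 lung libraries than in all 3 thymus libraries, where 12.5% of all genes did. Tap1 had a log2 fold change of -0.83 ± 0.35 (adjusted p = 0.134) and Tap2 of -0.40 ± 0.39 (adjusted p = 0.614).

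The class I genes are sensitive to the scaling in this comparison. In deposited units B2m was lower in lung (-0.51, limma adjusted p = 8.38e-05), as were H2-K1 (-0.80, adjusted p = 1.33e-05) and Tap1 (-1.17, adjusted p = 0.0181). The thymus columns sum higher by 0.48 on the log2 scale, which lowers abundant genes in lung by about as much. The median of all genes was at -0.27, since the pseudocount of 1 damps the shift of low genes. With quantile normalization B2m was higher in lung (0.47, adjusted p = 0.000513), and so was H2-D1 (0.74, adjusted p = 9.26e-05). Scaling to the T cell receptor complex genes also put B2m (0.45, adjusted p = 0.0232) and H2-D1 (0.72, adjusted p = 0.00254) higher, with the median of all genes, damped in the same way, at 0.31. H2-D1 was higher as well by edgeR on the 9 libraries it could use (0.46, adjusted p = 0.0168). H2-D1 turned to -0.22 (adjusted p = 0.373) in deposited units and H2-K1 to 0.14 (adjusted p = 0.685) with the receptor complex scaling. The directions of B2m, H2-K1 and H2-D1 between the tissues thus depend on the scaling. Tap1, which edgeR did not test, was at -0.95 (adjusted p = 0.0607) with quantile normalization and -0.56 (adjusted p = 0.363) with the receptor complex scaling.

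**Figure D4:**
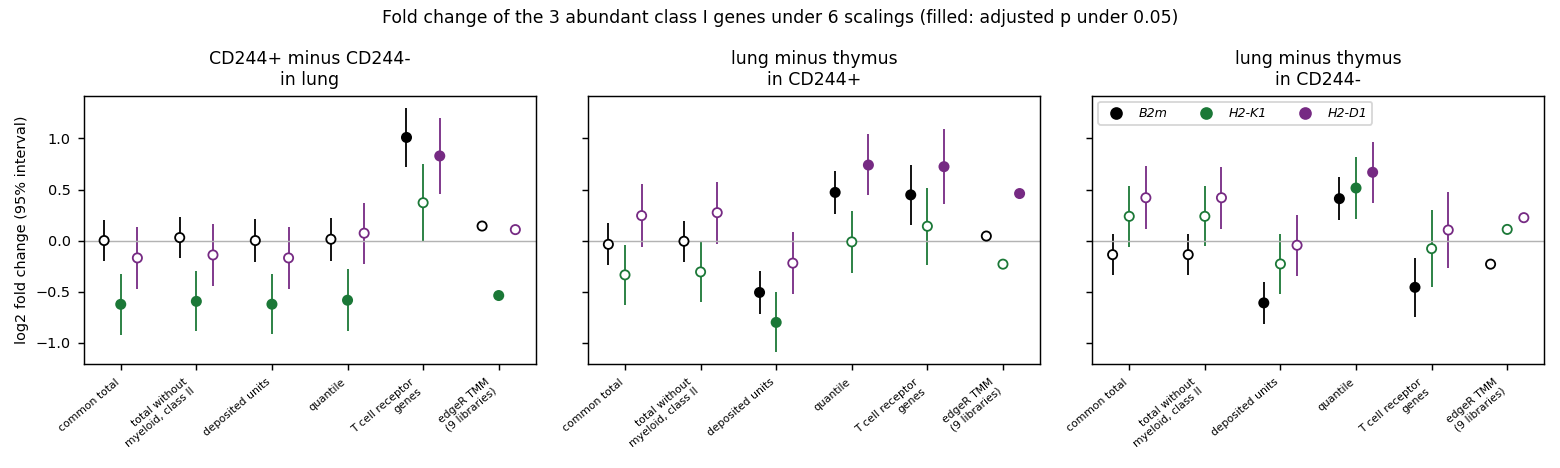
Log2 fold changes of B2m, H2-K1 and H2-D1 under 6 scalings of the libraries, by comparison, with 95% intervals except for edgeR, which is drawn without one. B2m between lung and thymus in CD244-positive cells runs from -0.51 in deposited units to 0.47 with quantile normalization, and H2-K1 in lung is below 0 under each scaling but that to T cell receptor complex genes (0.37).

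In CD244-negative cells, where both tissues had myeloid markers at or under 2.65 per 10000, again none of the 8 genes passed, against 6.88% of all genes, and 2 had an unadjusted p under 0.05 (H2-D1 and Tap2). Over all 4577 genes tested, 857 had such a p. H2-D1 had 25.7 ± 5.20 in lung and 19.1 ± 4.12 in thymus (SD, n = 3 each), a log2 fold change of 0.42 ± 0.15 (95% interval 0.11 to 0.73, limma adjusted p = 0.0926). Tap2 had 1.19 ± 0.495 in lung and 0.396 ± 0.561 in thymus (1.05 ± 0.39, adjusted p = 0.0974). H2-K1 had 24.8 ± 3.75 in lung and 20.9 ± 2.38 in thymus (0.24 ± 0.15, adjusted p = 0.417). In all 3 of these genes the groups overlap. H2-D1 passed without the first or the second lung CD244-positive library (adjusted p = 0.0413 and 0.0391), the second lung CD244-negative library (0.0238) or the first thymus CD244-negative library (0.0439), and Tap2 without the first lung (0.0458) or the first thymus (0.0197) CD244-negative library. Scaling moved the heavy chains here too. H2-D1 was at -0.045 (adjusted p = 0.903) in deposited units, 0.10 (0.878) with the receptor complex scaling and 0.67 (0.00103) with quantile normalization. H2-K1 was at -0.23 (adjusted p = 0.351), -0.078 (0.921) and 0.52 (0.0226) in the same order of scalings, with the median of all genes at -0.29 in deposited units and -0.17 with the receptor complex scaling. These medians, too, understate the shift of abundant genes. B2m lay lower in all 3 lung libraries (46.0 to 47.8) than in all 3 thymus libraries (48.2 to 54.1), where 10.1% of all genes were lower without overlap. Its log2 fold change was -0.14 (95% interval -0.34 to 0.07, limma adjusted p = 0.52), with -0.61 (adjusted p = 3.71e-06) in deposited units, -0.46 (adjusted p = 0.0429) with the receptor complex scaling and 0.41 (adjusted p = 0.00643) with quantile normalization.

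The genes around the 8 were read from lists of the same pathway. Of the lists' members in lung, 1 of 5 tested immunoproteasome genes fell in CD244-positive cells and 1 of 5 peptide-loading genes rose. Rel and Irf8 aside, 1 of 17 tested regulators of class I transcription was called, as lower. Rel and Irf8 were called higher but are not counted, since they leaned on the lung CD244-positive libraries to pass the filter. Over all genes 11.0% were called, so these counts are close to the background. None of the 4 constitutive proteasome counterparts passed. Psmb8, an interferon-inducible catalytic subunit that lies between Tap1 and Tap2, had 1.84, 2.82 and 2.53 molecules per 10000 in the lung CD244-positive libraries, against 6.06, 5.97 and 3.11 in the lung CD244-negative libraries. The groups do not overlap, and the log2 fold change was -0.90 ± 0.27 (limma adjusted p = 0.021), near 0 (-0.01) with scaling to the T cell receptor complex genes. The call was lost without the first lung CD244-positive library (adjusted p = 0.112) and without the first (0.109) or second (0.10) lung CD244-negative library, by edgeR (0.0636), with only the libraries compared (0.0551) and with sample quality weights (0.0705). Psmb9, its neighbour, had a log2 fold change of -0.07 (adjusted p = 0.943).

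Canx, the gene of calnexin, which folds new heavy chains, had 2.66, 2.59 and 3.89 molecules per 10000 in the lung CD244-positive libraries, against 1.35, 1.33 and 0.93 in the lung CD244-negative libraries. The groups do not overlap (log2 fold change 1.05 ± 0.32, limma adjusted p = 0.0199), and the call was lost without the third library of either (adjusted p = 0.179 and 0.0659) and with sample quality weights (0.061). Jak1, a kinase of the interferon receptors, averaged 5.99 ± 1.56 in lung CD244-positive and 10.2 ± 2.05 in lung CD244-negative cells (-0.74 ± 0.21, adjusted p = 0.0132), and its value was 0.22 with scaling to the T cell receptor complex genes; it did not pass by edgeR (adjusted p = 0.192), nor without the second (0.0877) or the third (0.0792) lung CD244-positive or the second lung CD244-negative library (0.101). Rel, an NF-kappaB subunit, had 15 molecules over the lung CD244-positive and 1 over the lung CD244-negative libraries; it passed the filter on low levels only through the lung CD244-positive libraries, so its call is no independent result. Irf8, an interferon regulatory factor prominent in myeloid cells, rose, with 16 molecules over the lung CD244-positive libraries and none over the lung CD244-negative ones (adjusted p = 0.00173). It passed the filter in only 18 of 24 alternatives, and its passing leaned on lung CD244-positive libraries. The Irf8 call is thus no independent result either.

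Of the 22 other class I-like heavy chain genes listed, 5 passed the filter on low levels. One was Fcgrt, the gene of the neonatal Fc receptor heavy chain, which also pairs with beta-2-microglobulin. It had 5 to 14 molecules in each lung CD244-positive library and none in the lung CD244-negative ones, and since it passed the filter only through the lung CD244-positive libraries, this is a description. H2-Q7, a Qa-2 gene with fractional counts in 10 of 12 libraries, averaged 2.40 ± 0.821 in lung CD244-positive and 4.30 ± 0.675 in lung CD244-negative cells (log2 fold change -0.76 ± 0.29, adjusted p = 0.0772).

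MHC class II genes present antigen taken up from outside and mark professional antigen-presenting cells. Of the 10 listed, the 5 that passed the filter on low levels did so only through the lung CD244-positive libraries, so their levels are given with no count of calls. Cd74 (the invariant chain) was at 32.6 ± 18.0 per 10000 in lung CD244-positive and 0.104 ± 0.179 in lung CD244-negative cells, and H2-Aa at 21.5 ± 10.03 and 0.104 ± 0.179; the others were H2-Ab1, H2-Eb1 and H2-DMa. The list summed to 50.1, 72.8 and 130 in the lung CD244-positive libraries, against 0.332 to 0.673 in the lung CD244-negative libraries. The 8 class I genes summed to 92.5, 88.1 and 88.6 in the same CD244-positive libraries, against 112, 98.0 and 102 in the CD244-negative ones. The class II sum and the myeloid marker sum (77.4, 157 and 128) both moved with the lung CD244-positive group, and their part in the class I, peptide-loading, proteasome and regulator values was not tested. Macrophages, as background, carry class I genes too.

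**Figure D5:**
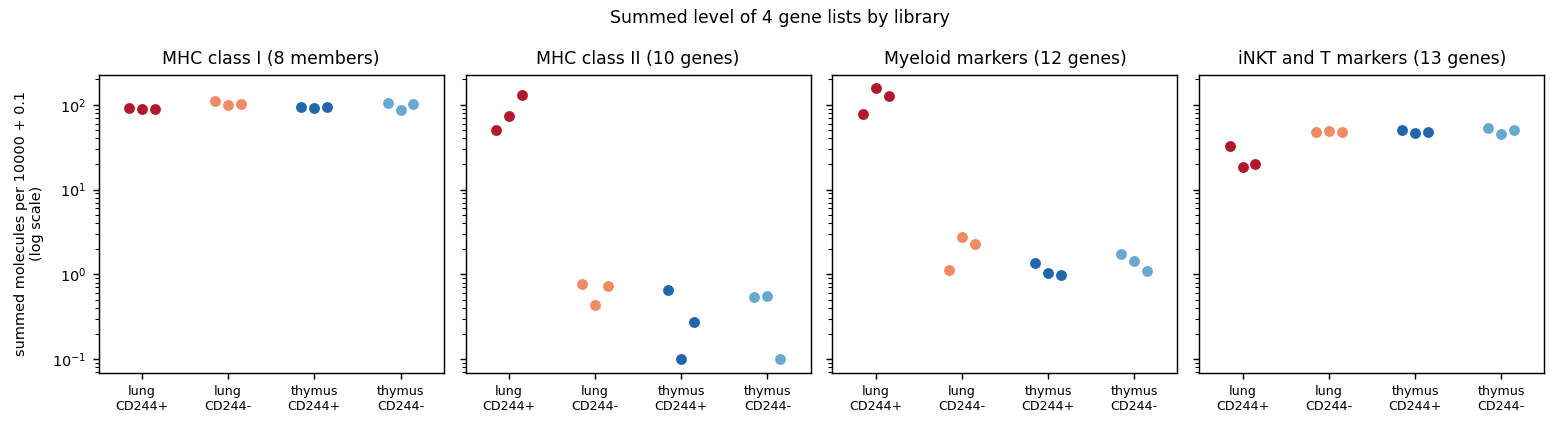
Summed levels in molecules per 10000, on a log axis, of the 8 MHC class I genes, the 10 MHC class II genes, the 12 myeloid markers and the 13 iNKT and T cell markers, in each library by group; sums of 0 are drawn at 0.1. The class I sum stays between 86.3 and 112 in all 12 libraries, while the class II sum is 50.1 to 130 in lung CD244-positive libraries and at most 0.673 elsewhere.

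Between the tissues and with Rel aside, CD244-positive cells had 1 of 5 tested peptide-loading genes, 0 of 5 immunoproteasome genes and 1 of 17 regulators called higher in lung and none lower, where 12.3% of all genes were called. CD244-negative cells had 0 of 5, 0 of 5 and 2 of 17 higher, with none lower, where 6.88% of all genes were called. Rel was also called higher in lung in CD244-positive cells, but is not counted because of the limit given above. Ifngr1, which encodes the ligand-binding chain of the interferon-gamma receptor, was the regulator with the smallest p in CD244-negative cells. Its level was 8.75 to 11.8 molecules per 10000 for lung CD244-positive, 12.4 to 13.8 for lung CD244-negative, 5.71 to 7.38 for thymus CD244-positive and 3.11 to 3.49 for thymus CD244-negative libraries, and no group overlaps another. In CD244-negative cells it was higher in lung by 1.82 ± 0.20 on the log2 scale (limma adjusted p = 2.76e-10), a call that held under every alternative run. In CD244-positive cells its lung value was 0.64 ± 0.20 above thymus (adjusted p = 0.0213), 0.20 (adjusted p = 0.587) in deposited units and at an adjusted p of 0.0537 with no filter, and the call was lost without any 1 of 4 libraries (adjusted p up to 0.158, without the second lung library). In thymus it rose in CD244-positive cells (0.82 ± 0.20, adjusted p = 0.041, 0.056 with the replicate number as a block), and this call was lost without any 1 of the 6 thymus libraries (adjusted p 0.0965 to 0.413), by edgeR (0.171), with no filter (0.165), with quantile normalization (0.066) and with a pseudocount of 2 (0.0697). The interaction was -1.18 ± 0.28 (adjusted p = 0.0051), -0.39 (adjusted p = 0.551) with scaling to the T cell receptor complex genes, and was lost by edgeR (adjusted p = 0.0642) and without the third lung CD244-positive library (0.0577).

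The other of those 17 regulators that passed between the tissues in CD244-negative cells was Ifnar1. It encodes a chain of the type I interferon receptor and averaged 1.64 ± 0.376 in lung and 0.353 ± 0.162 in thymus (log2 fold change 1.33 ± 0.40, limma adjusted p = 0.0259). Leaving out any 1 of 5 of the 6 libraries compared ended the call (adjusted p 0.0552 to 0.152), as did deposited units (0.0681), the receptor complex scaling (0.174), no filter (0.0621) and a pseudocount of 0.25 (0.0503). Irf1, an interferon-induced activator of class I genes, did not pass in any of the 5 comparisons, and its values lay between -0.80 and 0.44.

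The genes most alike in pattern to the 8 were sought over the 12 libraries by Pearson correlation of log2 levels, as a description. Among the genes closest to the sum of the 8 were Commd7 (r = 0.84), Atp6v0a2 (0.82), Sfxn1 (0.82) and Nop56 (0.81). B2m was closest to Hspbp1 (0.82), 2410006H16Rik (0.80), 6820431F20Rik (0.79), Cbl (0.79) and Sh2d3c (0.78). The genes named averaged 0.36 to 2.18 molecules per 10000, a few molecules per library, and B2m varied by a coefficient of variation of 5.3%. The 12 points differ in depth and group, and the part of either in these correlations was not tested. These genes were picked for the highest r among all tested genes. How high r runs from such picking alone was not tested, so the values are no evidence of shared control.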

How the data were processed

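RNA of 12 libraries was analysed. Per the labels' protocols, molecular barcodes sat in the oligo-dT primer and ERCC spike-in RNA was added to each tube. The mapper was STAR, with no version named, and the build mm10, per the submitters' processing notes; the counting step and annotation are not given in the sources used here. Its values are a signal that the authors deposited for each gene: molecule counts times 1 constant per library, with 0 ERCC rows. Molecules were recovered by dividing by that constant, and 94.3% to 95.9% of nonzero values came out whole (tolerance 1e-06). Since these are not raw counts, limma on log values was used as planned for such a unit. Columns were rescaled to a total of 10000.

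Genes with a level above 0.5 in at least 3 libraries (4577) were fitted as log2(level + 0.5) by limma 3.58.1 in R 4.3.3, with 4 group means and its trend and robust settings; p-values were two-sided and Benjamini-Hochberg adjusted, with a threshold of 0.05. All 8 class I genes passed the filter. The fit was also run on simulated counts with the same spread in all groups. The wider spread of the lung CD244-positive libraries was not simulated, so no support is drawn from that run. As an alternative, edgeR 4.0.16 (quasi-likelihood, TMM, filterByExpr) was run on recovered molecules, rounded, in the 9 libraries whose whole steps could be checked. Of 1156 genes tested it called 132 higher and 49 lower for CD244 in lung, against 324 and 181 of 4577 by limma, so the counts are not like for like. The members, lists and rule for named genes (of each pathway list, the called genes of smallest p, up to 4 a comparison, some not printed) were chosen with earlier results of these data known. Some genes are not reported here, and the regulator list leaves them out. Other alternatives were scalings, pseudocounts, filters, weights, a block and each library left out. Between replicates the chi-square per degree of freedom over genes ran between 1.65 and 1.70 for lung CD244-positive cells and between 1.09 and 1.23 elsewhere. Every library was treated as a separate replicate. Repeat preparations of the same cells could give such low values too, so they do not show that the libraries are independent. Intervals cover counting error only where they rest on molecules of 1 library.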

Additional observations from a re-analysis of the deposited data

Results flagged for a closer look

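The H2-K1 to B2m ratio lay lower in lung than in thymus in CD244-positive cells and higher in CD244-negative cells. Lung minus thymus was -0.081 in CD244-positive cells, where every lung library (0.30 to 0.357) lay below every thymus library (0.365 to 0.457), and 0.126 in CD244-negative cells, where every lung library (0.455 to 0.63) lay above every thymus library (0.376 to 0.419). Each tissue difference had an exact permutation p of 0.1 (two-sided), the smallest that 3 against 3 libraries can give, and 0.4 after adjustment over 12 ratios tested, so neither passed. The difference between these differences was not tested. The interaction for H2-K1 itself, tested across all genes, was -0.57 ± 0.21 (limma adjusted p = 0.131).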

How the results depend on the processing

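The fall of H2-K1 in lung CD244-positive cells held in 23 of 24 alternatives, with log2 fold changes of -0.71 to -0.51 and adjusted p up to 0.041 when 1 library was left out. Scaling to the T cell receptor complex genes turned it to 0.37, and with it H2-D1 (0.83) and Jak1 (0.22). B2m between lung and thymus turned to 0.45 (that scaling) and 0.47 (quantile normalization) in CD244-positive cells and to 0.41 (quantile normalization) in CD244-negative cells. For these the cause was not tested.

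The count of class I genes called was 1 for CD244 in lung, and 2 with scaling to the T cell receptor complex genes (B2m and H2-D1, both higher), quantile normalization or a pseudocount of 2 (H2-K1 and Tap2, both lower); leaving out 1 library gave 1 to 2. In thymus it stayed 0 in all 24 alternatives. The interaction had 0, 1 (B2m) with the receptor complex scaling, and 0 to 1 without 1 library. Lung against thymus in CD244-positive cells had 0, against 3 in deposited units, 2 with either the receptor complex or the quantile scaling and 1 by edgeR. In CD244-negative cells it had 0, against 1 in deposited units, 1 with the receptor complex scaling, 3 with quantile normalization and 0 to 2 without 1 library.

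Libraries of the same replicate number showed no correlation (18 correlations of same-numbered libraries, -0.034 to 0.017). Outside lung CD244-positive cells the replicates spread little beyond counting error (chi-square per degree of freedom 1.09 to 1.23). A shared animal or batch could therefore be missed by this check. With the replicate block the counts were 1 in lung and 0 in the other comparisons, and of the genes named the block ended only the thymus call of Ifngr1.

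Over all genes, CD244 in lung had 505 calls, against 1415 with the receptor complex scaling (1395 of them higher), 272 with the stricter filter (984 genes tested), 181 by edgeR (1156 tested) and 214 to 493 without 1 library, with fewest when a lung CD244-positive library was left out. Genes seen only in that group then failed the filter of 3 libraries, and 4249 to 4298 genes were tested in place of 4577. Higher calls went from 324 to between 111 and 155, and lower calls from 181 to between 103 and 163. Depth limits H2-T23, Tap2 and Nlrc5, at 0 to 7 molecules a library, and Tap1, at 2 to 13.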
